A study of Mus musculus with 278 samples.

Results

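Single cells with the transcripts of fibroblasts rather than of keratinocytes were compared according to how much Acta2 they held. Acta2 encodes smooth-muscle alpha actin, the actin by which myofibroblasts are usually recognised. The cells came from the library series GHA501A and were chosen by 2 of their own measured values, a Krt14 level under 10 TPM (the share of a cell's transcripts scaled to a sum of 1000000) and a Col1a1 level of at least 100 TPM. This rule took 83 of the 278 labelled cells, 49 of 71 cells of the untreated culture and 34 of 69 cells of the treated culture. Within each culture the chosen cells were ranked by Acta2 and split into 3 groups of near-equal size. The Acta2-low and Acta2-high groups held 16 cells each in the untreated culture and 11 cells each in the treated culture, 54 cells in all, and the 29 cells between them form the middle group. Acta2, Krt14 and Col1a1 were used by the rule, so their levels are given as a description only.

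The study co-cultured 9 parts of wild type (WT) keratinocytes with 1 part of K14ΔNβ-cateninER keratinocytes, all taken from adult mouse dorsal skin. The transgenic cells carry a stabilised beta-catenin joined to an oestrogen receptor domain, driven by the Krt14 promoter of basal keratinocytes and switched on by 4-hydroxy-tamoxifen (4OHT). The treated culture received 200 nM 4OHT and the untreated culture its solvent, DMSO, each for 24 h, and single cells were then captured on a medium-sized microfluidic chip. Both cultures thus contained transgenic cells, and cells with the transgene, which the study removed by their reads, were not told apart here. The labels name no animal and no culture beyond the treatment, so each treatment label of the series counts as 1 culture. The p-values below rest on 2 pairs of cell groups, whose differences may be technical. They set a gene's mean difference against a spread estimated over all genes, not against the spread of its own 2 pairs. A small p-value is thus no measure of agreement between the 2 cultures.

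Myofibroblasts are fibroblasts that build contractile bundles of actin and myosin and pull on their surroundings, above all in healing wounds and in cells kept on stiff plastic. Besides Acta2 they typically make Tagln (transgelin, an actin-binding protein), Cnn1 (calponin), Myl9 (a myosin light chain) and tropomyosins. Many of these genes are driven by serum response factor (Srf) with its myocardin-related partners, which bind a short motif called the CArG box, and by TGF-beta signalling.

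The labels call all cells keratinocytes, and the defining markers did not bear this out for the chosen cells. Of the 9 fibroblast markers with values, 8 had a median over 1 TPM in the 83 cells. Vim (the intermediate filament vimentin) was over 1 TPM in 83 of 83 cells at a median of 1049 TPM, Col6a1 in 83 of 83 at 749 TPM, Col1a2 in 83 of 83 at 112.1 TPM, and Prrx1 (a mesenchymal transcription factor) in 82 of 83 at 47.8 TPM. The exception was Dcn (decorin), which was over 1 TPM in 26 of 83 cells, and Pdgfra was not analysed here. The summed level of 10 keratinocyte markers, among them Krt14, which the rule used, had a median of 11.4 TPM. It was 279 TPM in the 57 other cells of the series GHA501A, in which 7 of the 9 fibroblast markers also had a median over 1 TPM. In the untreated and treated cells of the other library series, AG, it was 10545 and 10255 TPM. That contrast crosses library series in which some genes are listed differently, as given below. Single keratinocyte markers were nevertheless found in part of the cells, with Sfn over 1 TPM in 37 of 83, Krt5 in 34, Perp in 33 (up to 342 TPM), Itga6 in 30 and Epcam in 22. Krt15 was over 1 TPM in 8 cells (up to 454 TPM), Cdh1 (E-cadherin) in 3, Itgb4 in 2 and the desmosomal gene Dsp in 1. Of the other cell types that could hold Acta2, the mural markers Cspg4 and Kcnj8 were at 0 TPM in all 83 cells, while Notch3 was over 1 TPM in 21, Mcam in 19, Rgs5 in 7 and Lmod1 in 2. The endothelial genes Kdr and Tek were at 0 TPM in all 83 cells. Of the melanocyte genes Tyr was over 1 TPM in 77 of 83 cells, while Mlana was at 0 TPM in all 83. The name fibroblast-like is therefore kept here, with the low decorin and the presence of Tyr, Lyz2 and Cd14 as exceptions.

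The nearest cells on either side of the rule were close to each other. Krt14 reached 9.52 TPM in the last untreated cell taken and was 10.4 TPM in the first left out, with 9.23 and 10.1 TPM in the treated culture. Krt14 alone kept out 13 untreated and 25 treated cells. Col1a1 was 104.2 TPM in the lowest untreated cell taken and 95.6 TPM in the nearest cell left out. Fibroblast-like cells made up 69.01% of the untreated cells (95% Wilson interval 57.5 to 78.6) and 49.3% of the treated cells (37.8 to 60.8), intervals that cover counting error only, with 1 culture on each side and no test between them.

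Acta2 (chr19:34241090-34255590 on the minus strand of GRCm38) spanned the whole range from not listed to one of the abundant transcripts of a cell. In the untreated culture its lowest, median and highest level was 0, 0 and 2.54 TPM in the low group, 3.49, 11.1 and 57.3 TPM in the middle group, and 60.5, 365 and 5098 TPM in the high group. In the treated culture all 11 low cells were at 0 TPM, the middle group ran from 0 through a median of 3.92 to 76.4 TPM, and the high group from 80.4 through 501 to 5129 TPM. The ranked levels had no gap where the groups meet, and the boundaries of the high groups fell between 57.3 and 60.5 TPM in the untreated culture and between 76.4 and 80.4 TPM in the treated culture. Acta2 was at 0 TPM in 11 of 49 untreated and 14 of 34 treated cells, so that in the treated culture 3 cells at 0 TPM fell in the middle group by their order in the table. Only 7 cells, 4 untreated and 3 treated, reached 1000 TPM. Of 1936 stretches of 100 bases in the longest Acta2 transcript, 0 occur in the transcript of another gene, so no other annotated transcript, those of the other actins included, shares 100 matching bases with it.

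**Figure D1:**
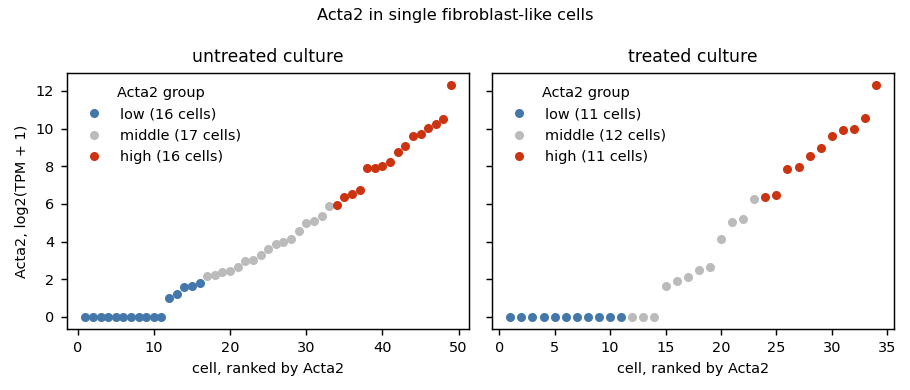
Acta2 in each of the 83 fibroblast-like cells, as log2(TPM + 1) on the vertical axis against the rank of the cell within its culture, coloured by group. The untreated cells (left, 49) and treated cells (right, 34) both climb from a run at 0 to 5098 and 5129 TPM with no gap where the groups meet.

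Measures of cell state stood beside the Acta2 groups as follows. The number of genes over 1 TPM per cell had medians of 6186 and 6385 in the low and high groups of the untreated culture and 5994 and 5922 in the treated culture. Cells with Mki67 or Top2a, genes of dividing cells, at 10 TPM or more made up 13 of 16 cells in both untreated groups, and 10 of 11 low and 9 of 11 high treated cells. The mean log2 level of 27 G2 and M phase genes had medians of 4.83 and 4.74 in the untreated low and high groups but 6.16 and 3.77 in the treated ones. The summed level of 3 immune markers, carried mainly by Lyz2 (lysozyme), had medians of 271 and 424 TPM in the untreated low and high groups and of 354 and 168.2 TPM in the treated ones. Krt14, under 10 TPM in all of them by the rule, had medians of 0.977 and 1.80 TPM in the untreated and 6.59 and 3.25 TPM in the treated low and high groups. In the treated culture the Acta2-low cells thus had higher medians of G2 and M phase, immune and Krt14 transcripts, while in the untreated culture the high cells had the higher immune and Krt14 medians. The part of these measures in the results below was not tested.

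Few genes differed between Acta2-high and Acta2-low cells in the same way in both cultures. For each gene the mean of log2(TPM + 1) over the low cells was subtracted from that over the high cells of the same culture, and the 2 differences were tested with limma across 10412 genes with the culture as a block. With an adjusted p under 0.05 (Benjamini-Hochberg) and a difference over 0.5, 9 genes were higher and 12 lower in Acta2-high cells, which is 0.0864% and 0.115% of the genes tested. These calls are fragile, since each of 13 other settings of the analysis gave 0 genes in either direction. With 1 residual degree of freedom the spread of each gene was taken wholly from the trend over all genes, and 789 genes had an unadjusted p under 0.05. A rule of size alone, a difference of at least 1 in the same direction in both cultures, took 155 genes upward (1.49%) and 1.28% of the genes tested downward.

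Across all genes the 2 cultures shared little. The untreated and treated differences of the 10412 genes had a Pearson correlation of 0.05 across genes, which are not independent replicates, and 51.4% of genes had the same sign. Of the 50 genes most raised in Acta2-high cells of the untreated culture, 24 (48%) were above 0 in the treated culture, against 47.3% of the 5873 genes with a mean log2(TPM + 1) over 2. Of the 50 most lowered there, 36 (72%) were below 0 in the treated culture, against 52.7%. In the other direction 34 of 50 genes most raised in the treated culture (68%) were above 0 in the untreated culture, against 53.2%, and 25 of 50 most lowered (50%) were below 0, against 46.8%. All 4 shares lay above those of all genes, by a wide margin for the genes lowered in the untreated and raised in the treated culture and by little for the other two sets.

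**Figure D2:**
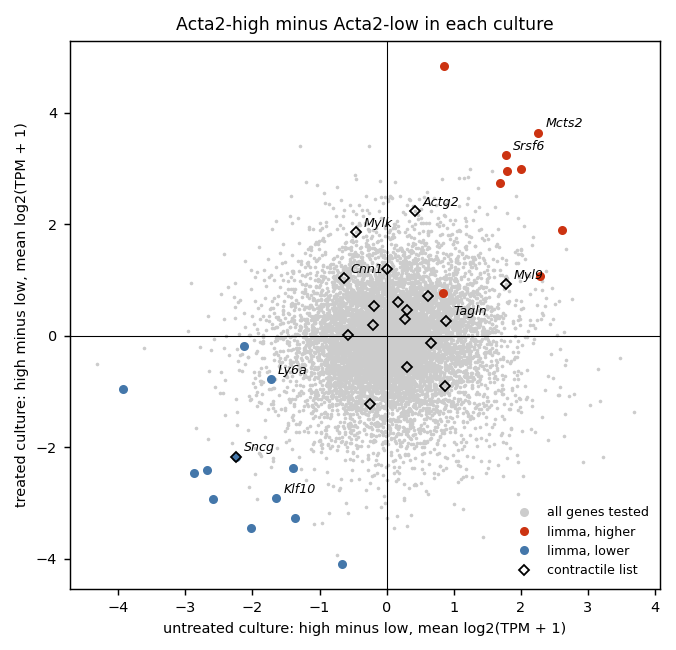
Difference of mean log2(TPM + 1), Acta2-high minus Acta2-low, in the untreated culture (horizontal axis) and the treated culture (vertical axis) for the 10412 genes tested. Red and blue points are the 9 higher and 12 lower genes called by limma, open diamonds the 18 tested genes of the contractile list, of which Sncg alone is among the called genes.

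The contractile genes that define a myofibroblast leaned upward with Acta2 as a list, but no member was called higher. Of 28 genes of the smooth-muscle contractile list, 25 had values and 18 passed the filter of over 1 TPM in more than 5 cells. Of these 18, limma called 0 higher and 1 lower, and the rule of size took 0 higher and 1 lower. Over all genes tested limma called 0.0864% higher and 0.115% lower, and the rule of size took 1.49% and 1.28%. At such shares a count of 0 higher among 18 genes says little about the list, and the same shares stand beside the counts of the lists below. The median difference of the 18 genes was 0.22 in the untreated and 0.38 in the treated culture, beside 0.03 and -0.04 over all genes. Of the 18, 8 were higher in both cultures, 2 lower in both and 8 of opposite sign. Those higher in both include Actg2, which would not have passed the filter without its Acta2-high cells. Over all genes tested 25.3% were higher in both cultures and 26.1% lower in both. The median of the contractile list's mean differences, 0.28, went to -0.034 with cells of at least 1000 TPM of Col1a1 only. It went to -0.53 without cycling cells, which left 1 or 2 cells a group. Lmod1, Pdlim3, Fhl1, Pgm5, Itga8, Aoc3 and Actc1, all genes of differentiated muscle or its adhesions, did not pass the filter, and Myh11, Des and Smtn were not analysed here.

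Tagln (chr9:45929619-45936058, minus strand), the usual partner of Acta2, was sparse in every group. It was over 1 TPM in 3 of 16 low and 6 of 16 high untreated cells, with highest levels of 20.5 and 327 TPM, and in 4 of 11 low and 3 of 11 high treated cells, with highest levels of 28.3 and 399 TPM. The median was 0 TPM in all 4 groups, and the groups overlapped. The difference of Tagln was 0.88 in the untreated and 0.27 in the treated culture (mean 0.58, SE 0.48, adjusted p = 0.874 by limma). The mean difference of 0.58 went to 3.04 on log2 of the mean TPM, which weights the few highest cells, and to -0.45 with cells of at least 1000 TPM of Col1a1 only. Of the exon bases of Tagln 67.9% in GENCODE M21 are also exon bases of Pcsk7 or Gm48529, and 33.2% of the 100-base stretches of its longest transcript occur in them. How the counting treated reads in that overlap is not given in the sources used here.

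Myl9 (chr2:156775420-156781658, plus strand), the regulatory myosin light chain of smooth muscle, had the highest mean difference of the 18 tested contractile genes. It was over 1 TPM in 1 of 16 low and 5 of 16 high untreated cells, reaching 5.08 and 373 TPM, and in 2 of 11 low and 4 of 11 high treated cells, reaching 68.4 and 769 TPM. Most cells of every group were at 0 TPM, and the middle groups, with 6 of 17 and 5 of 12 cells over 1 TPM, held it at least as often as the high groups. Its difference was 1.78 in the untreated and 0.92 in the treated culture (mean 1.35, SE 0.48, adjusted p = 0.341). The mean difference went to -1.11 with cells under 1 TPM of Krt14 only, which left 7 untreated and 2 treated cells a group. Actg2 (chr6:83512905-83536265, minus strand), the gamma actin of smooth muscle, was at 0 TPM in all 27 low cells. It was over 1 TPM in 2 of 16 high untreated cells, reaching 11.5 TPM, and in 4 of 11 high treated cells, reaching 336 TPM. Its difference was 0.43 in the untreated and 2.24 in the treated culture (mean 1.33). Without its high cells Actg2 would not have passed the filter of over 1 TPM in more than 5 cells. An upward difference was thus built in, and no p-value is given for it.

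The other contractile genes varied in direction and size. Cnn1 had a difference of -0.64 in the untreated and 1.03 in the treated culture, and was over 1 TPM in only 10 of 83 cells. Mylk, the kinase that activates smooth-muscle myosin, stood at -0.46 and 1.86. Tpm1 (tropomyosin 1), present in all 83 cells, had medians of 23.9 and 50.3 TPM in the untreated low and high groups and 32.8 and 57.9 TPM in the treated ones. Its differences of mean log2 levels were 0.65 and -0.13, and 3 of the 11 high treated cells, at 2.19 to 6.66 TPM, lay below the lowest treated low cell at 11.5 TPM. Tpm2 (tropomyosin 2) had differences of -0.19 and 0.54, and Cald1 (caldesmon) of 0.17 and 0.61. The only called gene of the list was Sncg, gamma-synuclein, which is listed for its presence in smooth muscle and is not itself a contractile protein. Sncg fell from a median of 408 TPM in low to 44.1 TPM in high untreated cells and from 127.2 to 2.85 TPM in treated cells (mean difference -2.20, SE 0.55, adjusted p = 0.037). Without cycling cells the difference of Sncg was 0.47, again on 1 or 2 cells a group.

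**Figure D3:**
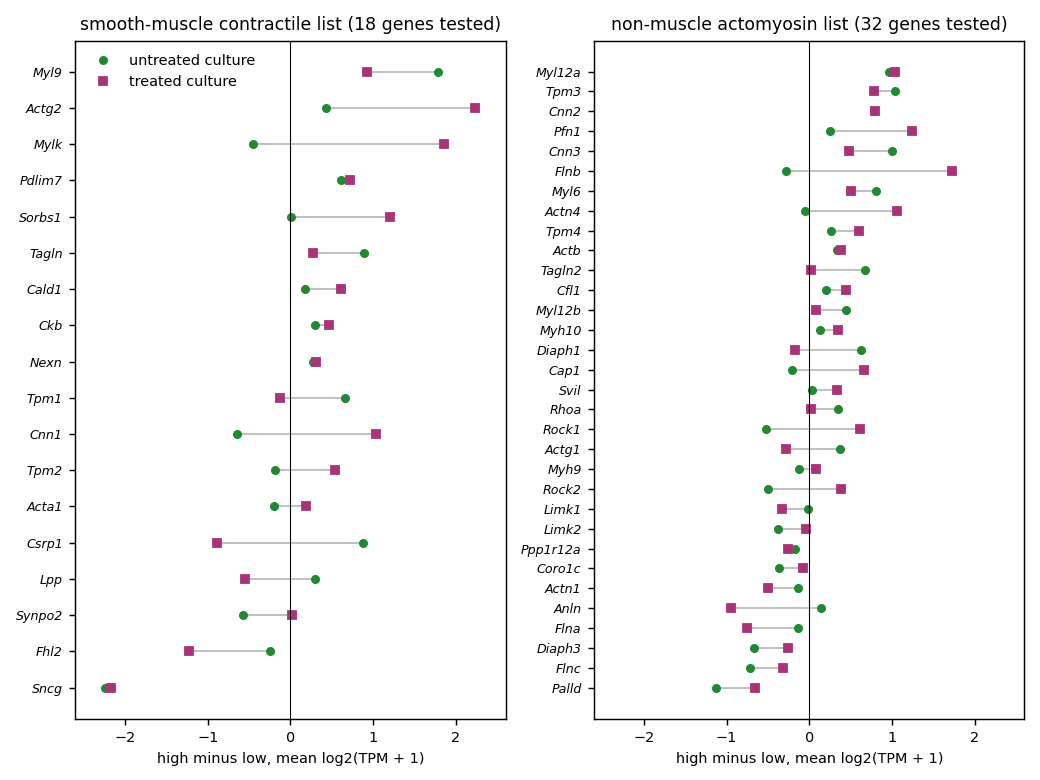
Acta2-high minus Acta2-low difference of mean log2(TPM + 1) for each tested gene of the smooth-muscle contractile list (left, 18 genes) and of the non-muscle actomyosin list (right, 32 genes), with the untreated culture as circles and the treated culture as squares joined by a line. Myl9 and Myl12a head the lists, and Cnn1, Mylk and Csrp1 lie on opposite sides of 0 in the 2 cultures.

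The cells were also counted by their own Acta2 level, without a test, since the bounds were chosen after the values were seen and only 7 cells reached 1000 TPM. Of the 7 cells with at least 1000 TPM of Acta2, 5 had Myl9 over 1 TPM, 4 had Tagln, 3 had Actg2 and 2 had Cnn1. Of the 15 cells between 100 and 1000 TPM of Acta2, 2 had Myl9, 4 had Tagln, 2 had Actg2 and 0 had Cnn1. Of the 35 cells over 1 and under 100 TPM, 12 had Myl9, 7 had Tagln, 2 had Actg2 and 3 had Cnn1. Of the 26 cells with Acta2 at or under 1 TPM, 4 had Myl9, 6 had Tagln, 0 had Actg2 and 5 had Cnn1. The median of Tpm1 was 87.3 TPM in the 7 cells, and 38.9, 41.2 and 36.5 TPM in the 15, the 35 and the 26 cells. Fhl2 and Tpm2 had no higher share in the 7 cells, at 57.1% and 85.7%, than in the 26 cells, at 57.7% and 96.2%. Of the 7 cells only the treated cell with the highest Acta2, at 5129 TPM, held all of them, with Tagln at 399 TPM, Myl9 at 769 TPM, Actg2 at 336 TPM and Cnn1 at 31.1 TPM. The untreated cell at 5098 TPM held Myl9 and Tagln, the latter at 4.14 TPM.

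**Figure D4:**
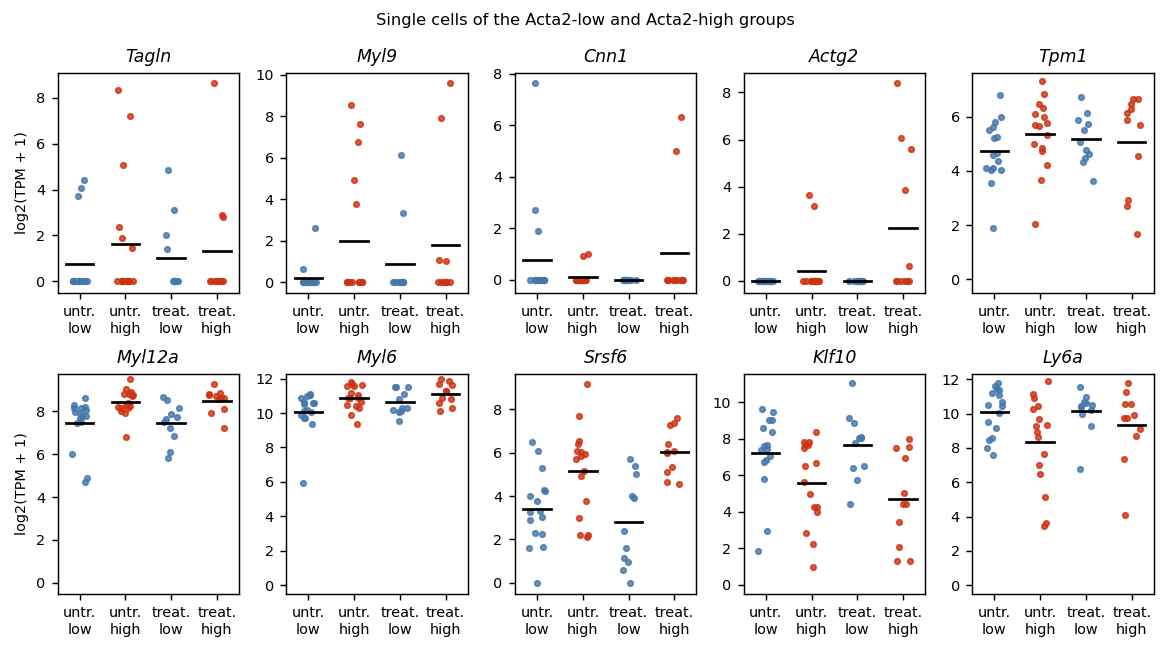
Levels of 10 genes as log2(TPM + 1) in each Acta2-low (blue) and Acta2-high (red) cell of the untreated and treated cultures, with the group mean as a black bar. Tagln, Myl9, Cnn1 and Actg2 are at 0 in most cells of all 4 groups. Myl12a and Myl6, which were picked for following Acta2 over these cells, are present in all cells and shifted upward in the high groups. Srsf6, Klf10 and Ly6a are genes called by limma.

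The gene that followed Acta2 most closely from cell to cell was a light chain of non-muscle myosin. Genes were ranked by the lower of the 2 Spearman coefficients with Acta2 over all fibroblast-like cells of each culture, 49 untreated and 34 treated, which share a culture and a library preparation. Myl12a (chr17:70993656-71002878, minus strand), the regulatory light chain in question, came first of all genes tested, with coefficients of 0.47 and 0.57. Its lowest, median and highest level was 25.2, 231 and 389 TPM in untreated low cells and 110.5, 324 and 715 TPM in untreated high cells. In the treated culture it was 56.3, 198 and 399 TPM in low cells and 148.2, 393 and 616 TPM in high cells, so that the groups overlapped in both cultures with the high cells shifted upward. Its difference was 0.97 and 1.04 (mean 1.00, SE 0.39, adjusted p = 0.425), which did not pass the test. Myl12a was picked by its correlation with Acta2 over these same cells, so its shift between the groups is no separate support. Of its 100-base stretches 24.5% also occur in the neighbouring paralogue Myl12b, which had differences of 0.44 and 0.08.

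Myl6 (chr10:128490860-128494145, minus strand), the essential light chain of the same myosin, was also among the 10 genes most like Acta2. Its coefficients were 0.36 and 0.41, and its medians were 1326 and 1873 TPM in untreated low and high cells and 1247 and 2511 TPM in treated ones (mean difference 0.66, SE 0.24, adjusted p = 0.35). The other 8 were Atp5g3 and Phb (proteins of mitochondria), Hspa5 (the chaperone BiP of the endoplasmic reticulum), Btf3, C1d, Rasa2, Pogk and Skida1, with lower coefficients between 0.33 and 0.37. Hspa5 had medians of 339 and 688 TPM in untreated low and high cells and of 449 and 939 TPM in treated ones. The 10 genes were picked by their coefficients over these same cells, so their higher levels in the high groups are no separate support. These coefficients are modest, and 18 genes of 10412 were above 0.3 in both cultures and 16 below -0.3.

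The non-muscle actomyosin list, which holds these light chains, was tested in full at 32 of 32 genes. Limma called 0 of them and the rule of size took 0 in either direction, beside 1.49% higher and 1.28% lower of all genes by size. The median difference was 0.08 in the untreated and 0.21 in the treated culture. Of the 32 genes 14 were higher in both, 9 lower in both and 9 of opposite sign, beside 25.3% higher and 26.1% lower in both over all genes. Cnn2 (a calponin of many cell types) had differences of 0.78 and 0.79, Tpm3 of 1.03 and 0.78, and Pfn1 (profilin, which feeds actin monomers to growing filaments) of 0.24 and 1.24. Actb, the most abundant actin, had medians of 11492 and 12525 TPM in untreated low and high cells and of 6726 and 7811 TPM in treated ones, differences of 0.34 and 0.39. Actg1 had differences of 0.37 and -0.28, and 51.1% of its 100-base stretches occur in transcripts of other genes, Actg-ps1 among them, so its level is uncertain where reads with several matches were discarded. At the other end, Palld (palladin, a scaffold of stress fibres) had differences of -1.13 and -0.65.

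Srf and its targets lay higher in Acta2-high cells for a few genes, none of them past the limma threshold. Of the 15 genes of the SRF and MRTF list 11 were tested, with 0 called by limma. The rule of size took 2 upward and 0 downward, beside 1.49% and 1.28% of all genes. Egr1 and Ier2, immediate early genes that growth factors and mechanical stress switch on through Srf, were the 2. Egr1 was over 1 TPM in 8 of 16 low and 11 of 16 high untreated cells and in 5 of 11 low and 8 of 11 high treated cells (differences 1.48 and 1.80, SE of the mean 0.65, adjusted p = 0.439). Ier2 had differences of 1.33 and 1.21 (adjusted p = 0.654). With cells under 1 TPM of Krt14 only, 7 untreated and 2 treated a group, the mean difference was -1.97 for Egr1 and -0.18 for Ier2. Srf itself had differences of 1.05 and 0.33, with 4 of 16 and 7 of 16 untreated cells and 3 of 11 and 5 of 11 treated cells over 1 TPM in the low and high groups (adjusted p = 0.822).

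The CArG box is the motif that Srf binds. Promoter stretches of some of the actin and myosin genes above, and of Srf itself, are printed to show where the box lies. In RefSeq promoters of GRCm38.p6, from 250 bases before to 50 bases after a start, an exact CArG box was found for 488 of 27025 genes (1.81%). It reads the same on both strands. It was found for 5 of the 22 matched genes of the contractile list, 3 of 27 of the actomyosin list, 3 of 10 of the SRF and MRTF list, and 1 of 9 genes most like Acta2, namely Myl6. Of the 11 matched genes named below as highest in Acta2-high cells 0 held it, and of the 6 matched genes named as lowest 1 did, Zfp871. Each sequence below has 30 bases, 5′ to 3′ along the gene's own strand, with the box in capitals, and its position is that of the first base of the box relative to the start.
Myl9, at -161, chr2:156775293-156775322: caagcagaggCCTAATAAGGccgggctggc
Myl6, at -50, chr10:128493040-128493069: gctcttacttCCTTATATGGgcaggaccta
Cnn2, at -56, chr10:79988534-79988563: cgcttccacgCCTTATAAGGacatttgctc
Actg1, at -90, chr11:120348566-120348595: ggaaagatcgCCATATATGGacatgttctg
Srf, at -82, chr17:46556225-46556254: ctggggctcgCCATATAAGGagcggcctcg
Srf, at -62, chr17:46556205-46556234: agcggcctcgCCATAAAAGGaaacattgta
Acta2, at -84, chr19:34255438-34255467: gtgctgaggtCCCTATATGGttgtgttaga
Acta2, at -34, chr19:34255388-34255417: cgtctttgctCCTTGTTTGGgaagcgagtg
The 2 stretches of Acta2 each differ from the box at 1 base, a looser match that 23.8% of all genes hold and 0 of the 11 genes named as highest. The genes shown were picked for print and are not all that hold a box. Exact boxes were also found for Fhl1, Fhl2, Actc1 and Acta1 of the contractile list and for Vcl, Fermt2 and Ldb3 of the focal adhesion list. Egr2 and Filip1l of the SRF and MRTF list held one too. For Myl12a and Cnn1 no exact box was found. Tagln, Actg2 and Actb had no matched promoter among the sequences used and were not searched. Of the 5 genes with an exact box shown here, Myl9, Myl6, Cnn2 and Srf were higher in Acta2-high cells of both cultures and Actg1 in the untreated culture only. None of them passed the limma threshold, and over all genes tested 25.3% were higher in both cultures. Myl6 was already picked for following Acta2, and the tally covers the printed genes only. The other genes with a box were not tallied, so it does not speak for genes with a box in general. A match is a description of letters and not of binding.

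Of the genes of dermal fibroblast identity, 1 passed the test. Ly6a (Sca-1, a surface protein of dermal and adventitial fibroblasts; chr15:74994877-74998031, minus strand) was present in all 83 cells and fell with Acta2. Its lowest, median and highest level was 192.2, 1408 and 3492 TPM in untreated low cells and 9.82, 553 and 3765 TPM in untreated high cells. In the treated culture it was 110, 1375 and 3063 TPM in low cells and 16.1, 870 and 3481 TPM in high cells, so the groups shared their upper range and the high cells reached further down. The difference of Ly6a was -1.73 and -0.78 (mean -1.25, SE 0.30, adjusted p = 0.0305). Its mean difference went to -0.54 on log2 of the mean TPM. Without cycling cells it was -0.28, on 1 or 2 cells a group. Ly6c1 had medians of 595 and 200 TPM in untreated low and high cells and of 296 and 222 TPM in treated ones (differences -1.91 and -1.18, adjusted p = 0.0567), and did not pass. Its mean difference of -1.54 went to -0.45 on log2 of the mean TPM. Of Ly6c1, 15.3% of the 100-base stretches are shared with Ly6c2. Of the 19 tested genes of that list Ly6a was taken by limma and Ly6c1 by size, beside 0.115% and 1.28% of all genes downward. The list's median was -0.11 and -0.05.

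Il33 and Tgfbr3 lay in the same direction without passing the test. Il33, an alarm cytokine kept in the nucleus of stromal cells, had medians of 234 and 34.9 TPM in untreated low and high cells and of 33.1 and 4.01 TPM in treated ones (differences -2.30 and -1.93, adjusted p = 0.0567). Tgfbr3 (betaglycan, a co-receptor that presents TGF-beta) had medians of 467 and 86.9 TPM and of 136.6 and 78.3 TPM (differences -2.44 and -1.03, adjusted p = 0.0509). The inflammatory list had a median difference of -0.48 in the untreated and -0.29 in the treated culture over 21 genes, and the TGF-beta list of -0.34 and -0.16 over 30 genes. Each had 0 genes called by limma and 1 taken downward by size, Il33 and Tgfbr3, beside 1.28% of all genes. Tgfb1 itself had differences of 0.31 and -0.14 and was over 1 TPM in 15 of 83 cells.

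The matrix genes that myofibroblasts lay down did not separate the groups. Of 37 tested genes of the matrix list limma called 0, and the rule of size took 1 downward, beside 1.28% of all genes. That gene was Nid1 (nidogen, of the basement membrane), with differences of -1.39 and -1.50. The list's median was -0.04 in the untreated and 0.30 in the treated culture. Postn (periostin) was over 1 TPM in 13 of 83 cells, with differences of 0.78 and 0.35. The matrix crosslinking list had medians of -0.02 and -0.04 over 24 genes, and Ctgf, a target of TGF-beta and YAP, did not pass the filter. Itga5, the fibronectin receptor subunit of focal adhesions, was the 1 of 25 focal adhesion genes taken by size, beside 1.49% of all genes upward. Its medians were 46.2 and 161.5 TPM in untreated low and high cells and 12.6 and 124 TPM in treated ones (differences 1.03 and 1.11, adjusted p = 0.626). Ankrd1, a YAP target, was the 1 of 15 YAP and TEAD genes taken by size, beside the same 1.49%. It was over 1 TPM in 5 and 11 of 16 untreated and 1 and 4 of 11 treated low and high cells (differences 1.95 and 1.31, adjusted p = 0.293), while that list's median was -0.15 and -0.25.

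**Figure D5:**
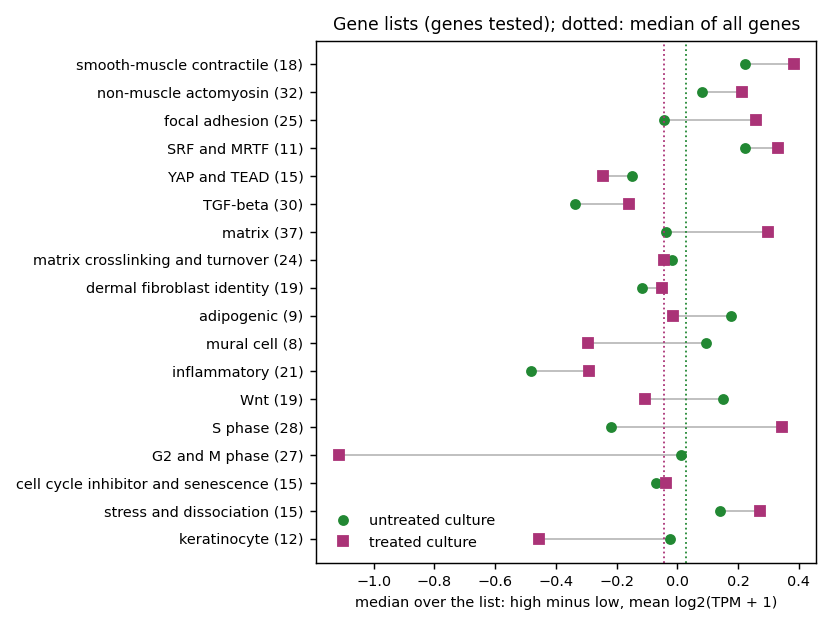
Median over each gene list of the Acta2-high minus Acta2-low difference of mean log2(TPM + 1), with circles for the untreated culture, squares for the treated culture and the number of genes tested in parentheses. The smooth-muscle contractile list lies at 0.22 and 0.38, the inflammatory list at -0.48 and -0.29, and the G2 and M phase list at 0.01 and -1.11, with dotted lines at the medians of all genes.

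The genes that were highest in Acta2-high cells belonged to no contractile list. Mcts2, a translation factor gene copied by retroposition (chr2:152687035-152687946, plus strand), had the smallest adjusted p. Its median was 33.4 TPM in untreated low and 146.2 TPM in untreated high cells, and 8.96 and 204 TPM in treated ones, with cells at 0 TPM in every group (mean difference 2.95, SE 0.57, adjusted p = 0.00278). Srsf6, a splicing factor (chr2:162931528-162937121, plus strand), rose from a median of 8.70 to 53.9 TPM in the untreated and from 4.32 to 64.2 TPM in the treated culture (mean difference 2.51, SE 0.60, adjusted p = 0.0305). All 11 treated high cells held Srsf6 between 22.5 and 195 TPM, while the treated low cells ran from 0 to 51.2 TPM. Kdelr3, which returns escaped proteins to the endoplasmic reticulum, rose from 14.4 to 175.6 TPM and from 26.7 to 246 TPM (mean difference 2.21, SE 0.50, adjusted p = 0.0231).

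Hacd3, an enzyme that lengthens fatty acids, and Gtf3c6, a subunit of the RNA polymerase III factor TFIIIC, also rose. Hacd3 had differences of 1.79 and 2.95 and Gtf3c6 of 2.62 and 1.90, each with an adjusted p of 0.0305. Without cycling cells Gtf3c6 turned to a difference of -4.17, on 1 or 2 cells a group. Qtrt1, Cd63, Phf5a and Tada1 complete the 9 called genes and lie outside the rule for named genes. Selenos, a protein of endoplasmic reticulum quality control, had differences of 2.05 and 1.97 (adjusted p = 0.0817), and Gnl3, a nucleolar protein of dividing cells, of 1.96 and 2.11 (adjusted p = 0.0509). Hist1h2bc, Pigf, Zswim7, Jtb and Alg3 were likewise taken by size and not by limma. Among the cell-cycle and stress lists Ccne1, Btg2 and Hmox1 were taken by size, with differences of 1.19 and 2.07, of 1.37 and 2.65, and of 1.07 and 1.31.

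The genes that fell in Acta2-high cells included transcription factors. Klf10, a Krüppel-like factor induced early by TGF-beta (chr15:38291463-38300706, minus strand), had lowest, median and highest levels of 2.64, 183.5 and 807 TPM in untreated low and 0.948, 68.0 and 328 TPM in untreated high cells. In the treated culture it had 20.2, 261 and 2103 TPM in low and 1.44, 20.4 and 252 TPM in high cells, and the groups overlapped in both cultures (mean difference -2.28, SE 0.49, adjusted p = 0.0138). Maf, a bZIP transcription factor, fell from a median of 39.3 to 0.500 TPM in the untreated and from 39.9 to 1.66 TPM in the treated culture (mean difference -2.54, SE 0.64, adjusted p = 0.037). The zinc-finger genes Zfp871 and Zfp955b had mean differences of -2.75 and -2.74, and Sertad3 (a regulator of transcription) of -2.66, all called by limma. Tsta3, an enzyme of GDP-fucose synthesis, fell by 1.39 and 2.38 on the log2 scale in the untreated and treated culture.

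Ces1a, the remaining lower gene, lies outside the rule for named genes. Some called genes differed by very unequal amounts in the 2 cultures. Ndrg1 and Bnip3, both induced by low oxygen, had differences of -3.92 and -2.12 in the untreated culture but of -0.95 and -0.19 in the treated one. In the treated culture the median of Bnip3 was 795 TPM in low and 1340 TPM in high cells, the opposite order to the 1292 and 419 TPM of the untreated culture. Mt4, a metallothionein, had differences of -0.67 and -4.09. Wisp1, a matricellular Wnt target, had differences of -1.43 and -1.19, and Tcf7, a transcription factor of the Wnt pathway, of 1.00 and 1.01, both taken by the rule of size and neither by limma (adjusted p = 0.614 and 0.623), while the Wnt list as a whole had medians of 0.15 and -0.11 over 19 genes.

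Acta2 was present outside the fibroblast-like cells too. It was over 1 TPM in 75.5% of the 49 untreated and 58.8% of the 34 treated fibroblast-like cells, in 52.6% of the 57 other cells of the series GHA501A, and in 84.8% of 66 untreated and 92.2% of 64 treated cells of the series AG, which hold keratinocyte markers. Its median in AG cells was 47.5 and 44.96 TPM. In the AG cells the Spearman coefficient with Acta2 was 0.53 and 0.67 for Actb, 0.66 and 0.69 for Actg1, 0.46 and 0.50 for Myl12a, 0.37 and 0.41 for Myl9, and -0.05 and 0.07 for Tagln. Myl12a thus followed Acta2 with similar coefficients in AG cells and in fibroblast-like cells, while its coefficient in the 57 other GHA501A cells was 0.04. Acta2 levels were not compared between the series, since Hspa5, a gene that every cell uses, is listed at a median of 0 TPM in both AG cultures, as is Tpm1.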

How the data were processed

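Single-cell RNA-seq of 278 cells was analysed, of which 270 carry a treatment label and 8 carry conflicting labels and entered no comparison. The authors prepared libraries with SMART-Seq v4 and Nextera XT, sequenced 100 base pairs from both ends, trimmed with cutadapt, aligned to GRCm38 with TopHat while discarding reads with several matches, counted per gene with featureCounts and deposited TPM, which sum to 1000000 per cell. Tool versions and gene annotation are not given in the sources used here. Read depth per cell is unknown, so no counting interval was set on a TPM value, and 16 columns matching no label were not used.

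The members, gene lists and tests were chosen with earlier results of these data known. Cells were taken and ranked as described, and values were averaged as log2(TPM + 1) within each group. A difference on this scale understates the change of low genes. Genes over 1 TPM in more than 5 of the 83 cells were tested with limma 3.58.1 (R 4.3.3), with an intensity trend and the culture as a block on 4 group means, adjusted by Benjamini-Hochberg. The pairing comes from the treatment label that high and low cells share. Cells were not used as replicates. The script was first tested on simulated data. Spearman coefficients over cells are descriptions. Python 3.11.15, pandas 2.3.3 and scipy 1.17.1 were used.

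Genes were named by rule. They were up to 12 in each direction past the limma threshold (or the size rule where fewer than 10 passed) with a mean log2 level over 2, the 10 most like Acta2, up to 4 called members of each list, and a fixed set of contractile and TGF-beta genes. Alternatives changed the averaging, pseudocount, filter, fractions compared, marker thresholds, depth strata, cycling cells, block and trend. One of them, which puts all cells without Acta2 in the low group, was chosen after seeing the data. Exon overlaps and 100-base matches were computed on GENCODE M21, and promoters are RefSeq sequences of GRCm38.p6.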

Additional observations from a re-analysis of the deposited data

Results flagged for a closer look

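Several lists and genes had differences between Acta2-high and Acta2-low cells of opposite sign in the untreated and treated cultures, at least 0.5 apart on the log2 scale. With 1 culture each the contrast between cultures was not tested. The S phase list had medians of -0.22 untreated and 0.35 treated, and the G2 and M phase list of 0.013 and -1.11. The fibroblast markers had medians of -0.039 and 0.47, the keratinocyte markers of 0.0011 and -0.71, and the immune markers of 1.85 and -1.42. Cnn1 stood at -0.64 untreated and 1.03 treated, Tpm1 at 0.65 and -0.13, Tpm2 at -0.19 and 0.54, and Actg1 at 0.37 and -0.28.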

How the results depend on the processing

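The 9 higher and 12 lower genes called by limma became 0 and 0 under each of the 13 alternatives, among them the fit with no replicate block, and no alternative had an adjusted p under 0.0683. Genes taken by size, 155 higher and 1.28% of those tested lower, numbered 345 and 453 on log2 of the mean TPM, 408 and 345 with a pseudocount of 0.1, 53 and 45 when the upper and lower 50% were compared, 368 and 741 with Krt14 under 1 TPM, 467 and 204 with Col1a1 of at least 1000 TPM, and 517 and 582 without cycling cells, with 248 lower when the outer 25% were compared. The median of the contractile list, 0.28, was 0.12 with Krt14 under 1 TPM, -0.034 with Col1a1 of at least 1000 TPM and -0.53 without cycling cells. The difference of Tagln, 0.58, was 3.04 on log2 of the mean TPM and -0.45 with Col1a1 of at least 1000 TPM. With Krt14 under 1 TPM the mean difference of Myl9 was -1.11 and that of Egr1 -1.97, on 7 untreated and 2 treated cells a group. Without cycling cells Gtf3c6 was -4.17 and Sncg 0.47. The cause of these shifts was not tested, but cells per group fell to 2 and 1 without cycling cells. Of the 56 named genes 36 kept their sign in every alternative. Leaving out 1 culture leaves 1 pair, from which no count can be tested, and Tagln did not pass the filter without cycling cells. Depth is unknown, so a level of 0 TPM cannot be given a limit.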

Other observations

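A pair of gene groups outside the lists above was put together after the values were seen, so their counts are a description without support. The first held 31 tested genes of endoplasmic reticulum folding and transport, which prepare secreted proteins such as collagens. In Acta2-high cells 20 of the 31 were higher in both cultures, beside 25.3% of all genes. The medians of the 31 were 0.68 untreated and 0.46 treated. Of them 7 were taken upward by size (1.49% of all genes tested were), and limma called 1, Kdelr3 (0.0864% of all genes). Of 20 tested genes induced by low oxygen, 2 had a mean difference above 0. In both cultures 12 of the 20 were lower and 1 higher, beside 26.1% and 25.3% of all genes. The medians of the 20 were -1.35 untreated and -0.42 treated. Of them 4 were taken downward by size (1.28% of all genes), and limma called 2, Ndrg1 and Bnip3 (0.115% of all genes).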
